A study of Sus scrofa with 15 samples.

Results

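The apolipoprotein and lipoprotein remodeling genes of piglet liver were followed here in the RNA-seq input libraries of the CON and LPS groups. The set held 10 genes, the apolipoproteins APOA1, APOA4, APOA5, APOB, APOC3 and APOE, the transfer proteins MTTP and PLTP, the lipase LIPC and the enzyme LCAT, and each was looked up by its pig Ensembl symbol among the 31908 rows of the count table. Of these, 8 had a row and 7 had enough reads to be tested among 12774 genes. APOA5 and PLTP are not paired with an identifier in the name table used here and were skipped, and LCAT had a row with 0 counts in every library.

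The animals were male Duroc x Large White x Landrace piglets in the growing stage. Those of the LPS group had received 80 μg/kg of lipopolysaccharide (LPS), the outer membrane lipid of Gram-negative bacteria, into the peritoneum, and those of the CON group sterile saline. Liver was taken 4 h later, polyadenylated RNA was sequenced, and 3 libraries per group were counted out of 6 piglets per group. The labels do not say which piglets gave the libraries or whether each library came from a single animal, so p-values measure only the spread between these libraries.

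Lipoproteins carry triglyceride and cholesterol through the blood, and the liver makes most of their proteins. APOB forms the backbone of very low density lipoprotein (VLDL), and MTTP loads lipid onto it in the endoplasmic reticulum. APOA1 is the main protein of high density lipoprotein (HDL), while APOE, APOC3, APOA4 and APOA5 exchange between particles and steer their lipolysis and uptake. LIPC and LCAT act on circulating particles, LIPC as a lipase that hydrolyses triglyceride and phospholipid and LCAT by esterifying the cholesterol of HDL, and PLTP moves phospholipid between particles.

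Total counts ranged from 4348478 in LPS replicate 1 to 19967417 in LPS replicate 3. Counts below are given as CPM, that is, relative to the library size after scaling by the TMM method of edgeR. The TMM factor of LPS replicate 3 was 0.735, and those of the other libraries were 0.979 to 1.11. The place of LPS replicate 3 among the libraries therefore depends on the scaling. Values per library always follow the order of replicates 1, 2 and 3, and SE stands for standard error. LCN2, a gene known to respond to LPS, had 2.95, 5.00 and 4.94 CPM in the CON libraries, against 114, 29.4 and 129 CPM in the LPS libraries. LPS replicate 2 was closer to the CON libraries than LPS replicates 1 and 3 were. Across genes its log2 CPM correlated at 0.923 to 0.945 with the CON libraries, where those of LPS replicates 1 and 3 correlated at 0.837 to 0.899. Within the LPS group, replicate 1 correlated at 0.907 with replicate 2 and at 0.903 with replicate 3, and replicates 2 and 3 at 0.852. Results are also given without LPS replicate 2. Since it was singled out for its likeness to the CON libraries, leaving it out by itself widens the differences between the groups, and the calls gained that way are a description and no independent support.

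**Figure D1:**
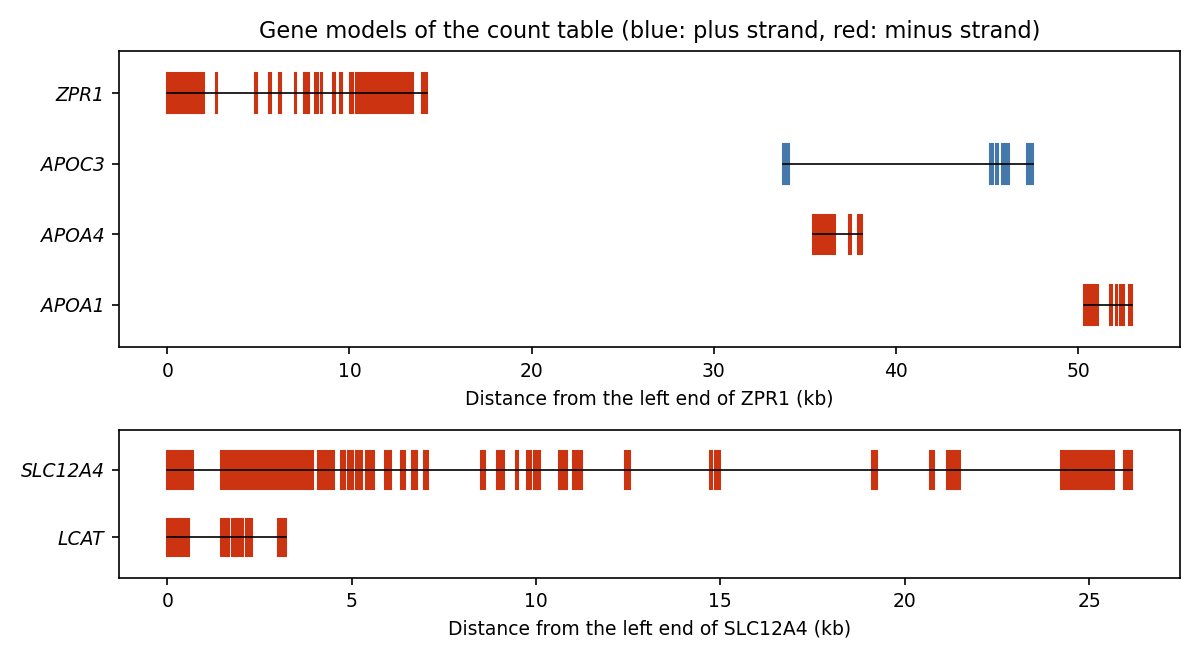
Exons (boxes) and introns (lines) of the rows around the APOA1 cluster and around LCAT, drawn against the distance in kb from the left end of ZPR1 and of SLC12A4, with the strand as color. APOA4 sits in an intron of APOC3 on the other strand, and every exon of LCAT lies within exons of SLC12A4.

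APOA1, APOA4 and APOC3 lie side by side within 19108 bases of chromosome 9. APOC3 (ENSSSCG00000015069) runs from 44199871 to 44213550 on the plus strand, APOA4 (ENSSSCG00000040689) from 44201508 to 44204206 and APOA1 (ENSSSCG00000030921) from 44216393 to 44218978, both on the minus strand. These are coordinates of the count table, whose genome build was not named in the sources used. APOA4 lay entirely within the longest intron of APOC3, which spans 11021 bases, and the exons of these 2 genes shared 0 bases, so their counts can be read separately. The gap between APOC3 and APOA1 was 2842 bases. The map of the gene models shows this arrangement.

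The other members are scattered. APOB (ENSSSCG00000008595) lies on chromosome 3 from 117250096 to 117316200, APOE (ENSSSCG00000003088) on chromosome 6 from 51372259 to 51377794, MTTP (ENSSSCG00000009179) on chromosome 8 from 120819142 to 120879388, and LIPC (ENSSSCG00000004596) on chromosome 1 from 113433679 to 113604306. APOA1, APOB, APOE and MTTP overlapped no other row. LIPC shared 108 exonic bases, 4.87% of its exon length, with a row on the opposite strand (ENSSSCG00000051703), so a small part of its reads is uncertain.

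LCAT (ENSSSCG00000028350, chromosome 6 from 28550357 to 28553567) had 0 counts in all 6 libraries, and this 0 cannot be read as absence of its mRNA. All 1492 exonic bases of its row lie within exons of SLC12A4 (ENSSSCG00000028609), a potassium-chloride cotransporter gene on the same strand. Among all rows, 153 had every exonic base shared with another row on the same strand, and 153 of these 153 were at 0 in every library, against 25.9% of the other rows. The row of SLC12A4 had 59.5, 59.7 and 98.2 CPM in the CON libraries, against 140, 75.9 and 118 CPM in the LPS libraries. Its log2 fold change was 0.62 (SE 0.36, adjusted p of 0.511 by edgeR). Since every fully shared row was at 0, these values cannot be read as a level of LCAT. Whether any reads of LCAT were counted in this row was not tested.

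For APOA5 the neighbouring row may matter. In the RefSeq annotation of pig (assembly Sscrofa11.1) APOA5 stands next to ZPR1, which encodes a zinc finger protein. The ZPR1 row had 835, 487 and 1091 CPM in the CON libraries, against 504, 611 and 378 CPM in the LPS libraries, so the groups overlapped. Whether reads of APOA5 were counted in this row was not tested. SLC12A4 and ZPR1 were singled out after their values had been seen.

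**Figure D2:**
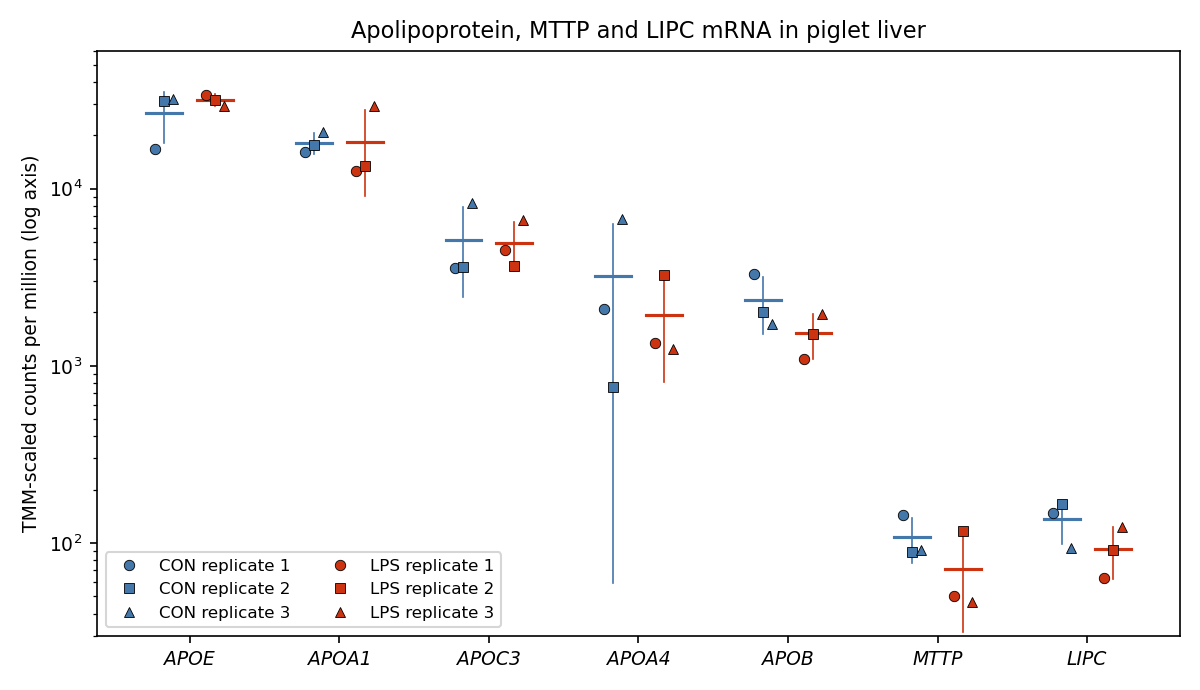
TMM-scaled CPM (log axis) of the 7 tested genes in each of the 3 CON and 3 LPS libraries. Points are libraries, with the replicate number as the symbol, horizontal lines are group means and vertical lines are 1 SD; the CON and LPS libraries overlap for each of the 7 genes, and the APOA4 libraries of the CON group lie furthest apart.

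The tested apolipoproteins were among the abundant transcripts of the liver. Together the rows of the set held 4.55% to 6.80% of all counts in the CON libraries and 5.01% to 5.98% in the LPS libraries. APOE ranked between 1 and 6 by count among all rows, depending on the library, and APOA1 between 4 and 9. MTTP and LIPC were much less abundant, ranking between 691 and 2943 and between 637 and 2057. The lowest count of a tested member in any library was 229, for MTTP in LPS replicate 1, where counting error alone is 6.61%. Counting error was therefore small beside the differences between libraries.

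To compare levels between genes, counts were also divided by exon length and given per 1000 exonic bases (RPKM). In the CON group APOA1 stood first at 13946 ± 1848 RPKM (mean ± SD, n = 3), followed by APOE at 7515 ± 2420, APOC3 at 4567 ± 2406 and APOA4 at 2070 ± 2032. APOB followed at 158 ± 56 RPKM, LIPC at 61.3 ± 16.8 and MTTP at 19.1 ± 5.4. In this order the ranges of APOE and APOC3 overlapped, as did those of APOC3 and APOA4, and all other neighbours were separated in all 3 CON libraries. The LPS group had the same order, from APOA1 at 14137 ± 7165 RPKM to MTTP at 12.6 ± 7.0, and no neighbouring ranges overlapped there. The margin between APOA1 and APOE in the LPS group was narrow, with a lowest APOA1 value of 9634 RPKM and a highest APOE value of 9616 RPKM. By counts APOE was above APOA1 in every library of both groups. The order of this pair thus rests on the exon lengths of their rows, 1301 bases for APOA1 and 3534 for APOE. Whether these lengths match the transcripts present in liver was not tested.

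The comparison between the groups asked whether liver mRNA of these genes differed 4 h after LPS. No member was called by edgeR's quasi-likelihood test when a Benjamini-Hochberg adjusted p under 0.05 together with a change of more than 1.5 times was required. Over all 12774 tested genes this test called 0.0548% higher and 0% lower in the LPS group. DESeq2 called 2.02% of genes higher and 1.14% lower, and again none of the 7 members. At an unadjusted p below 0.05 edgeR gave 0 of the 7 members, against 6.18% of all genes higher and 6.33% lower. Of the 7 members 5 had a log2 fold change below 0 and 2 above 0, with a median of -0.55, where the median of all tested genes was 0.01. On the TMM scale the LPS libraries lay wholly above or wholly below the CON libraries in none of the 7. This was the case for 6.52% and 9.8% of all tested genes. For APOB the overlap depends on the scaling, as given below. In bulk liver, fewer hepatocytes and less mRNA per hepatocyte cannot be told apart.

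APOE, the exchangeable apolipoprotein that hepatic lipoprotein receptors bind, had 16698, 31067 and 31912 CPM in the CON libraries. In the LPS libraries it had 33982, 31650 and 29173 CPM. On this TMM scale the LPS libraries were close together, and CON replicate 1 lay below all other libraries. As a percentage of all counts, without TMM scaling, APOE held 3.58%, 3.52% and 2.14% in the LPS libraries. In the CON libraries it held 1.81%, 3.35% and 3.12%. The log2 fold change was 0.25 (SE 0.37, adjusted p of 0.812 by edgeR), a fold of 1.19 with a 95% interval from 0.675 to 2.10. Without CON replicate 1 it was 0.0013. On the TMM scale the highest LPS value was 1.16 times the lowest, whereas the median over the 1161 genes with at least 100 CPM in the CON group was 1.86.

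APOE is also made by macrophages, and their markers were therefore counted. Of 12 tested Kupffer cell or macrophage markers 11 had a log2 fold change below 0, with a median of -0.48, and 0 were called. Over all tested genes 6326 of 12774 were below 0. The summed level of the markers ranged between 2531 and 4088 CPM in CON liver and between 2739 and 4219 CPM in LPS liver. No marker was at 0 in any library. CD14, the 1 marker above 0, made up much of the LPS sums, with 1354, 805 and 2328 CPM there against 518, 818 and 821 CPM in CON liver. All LPS libraries lay below all CON libraries for 4 markers and above them for 0, or 33.3% and 0%, against 9.8% and 6.52% of all tested genes. By immunostaining the study reports more macrophage infiltration in LPS liver, and mRNA levels of markers are not counts of cells. The part of these markers in the APOE level was not tested.

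APOA1, the structural protein of HDL, had 15995, 17698 and 20740 CPM in the CON libraries, against 12534, 13501 and 29142 CPM in the LPS libraries. LPS replicates 1 and 2 lay below all CON libraries and LPS replicate 3 lay above them. This gave a log2 fold change of 0.02 (SE 0.41, adjusted p of 0.992 by edgeR), with a 95% interval of the fold from 0.540 to 1.9. Without LPS replicate 3 it was -0.46, so the estimate for APOA1 rested on which LPS library was included. When libraries were scaled to total counts it was -0.19.

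APOC3, an inhibitor of triglyceride clearance, had 3555, 3601 and 8271 CPM in the CON libraries, against 4496, 3681 and 6640 CPM in the LPS libraries. All LPS values lay within the CON range. Between the groups the log2 fold change was -0.06 (SE 0.43, adjusted p of 0.973 by edgeR), and the 95% interval of the fold ran from 0.492 to 1.87. Without CON replicate 3 it was 0.49.

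APOA4, made in both liver and intestine and carried on HDL and triglyceride-rich particles, was the most variable of the set. It had 2099, 755 and 6734 CPM in the CON libraries, against 1340, 3262 and 1237 CPM in the LPS libraries. CON replicates 2 and 3 differed by 8.92 times, the second largest such ratio among the 1161 genes with at least 100 CPM, for which the median was 1.51. All LPS values lay between these CON libraries. The log2 fold change was -0.72 (SE 0.71, adjusted p of 0.723 by edgeR), and the 95% interval of the fold was the widest of the set, from 0.200 to 1.85. Its direction turned only when CON replicate 3 was left out, at 0.48 in edgeR. Its size also depended on LPS replicate 2, with -1.31 without that library.

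APOA4 was also compared with its neighbours inside each library. Per length, the log2 ratio of APOA4 to APOC3 within a library was -1.22, -2.71 and -0.75 in the CON libraries, against -2.20, -0.63 and -2.88 in the LPS libraries. The log2 ratio of APOC3 to APOA1 varied less, between -2.09 and -1.12 in CON liver and between -1.93 and -1.27 in LPS liver. Since APOA4, APOB and MTTP are also intestinal genes, markers of small intestine epithelium were looked up. Of the 6 such markers with a row, FABP2, CDH17 and SI reached at most 0.0683, 0.218 and 0.0683 CPM in any library, that is, at or near 0, and CDX2 at most 1.09 CPM. VIL1 and ANPEP, which other epithelia also express, were present, at 13.6 to 31.9 and 94.4 to 166 CPM in CON liver and at 2.62 to 9.76 and 53.9 to 66.9 CPM in LPS liver, and the summed level of the list was 108 to 187 CPM and 64.0 to 74.3 CPM. Their part in the values of APOA4, APOB and MTTP was not tested.

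APOB, the backbone of VLDL and LDL, had 3292, 2001 and 1729 CPM in the CON libraries, against 1090, 1519 and 1962 CPM in the LPS libraries. On the TMM scale LPS replicates 1 and 2 lay below all CON libraries and LPS replicate 3 lay within their range. Relative to total counts LPS replicate 3 lay below CON replicate 3 too, with 28741 of 19967417 counts against 17484 of 10351491. The overlap of the groups for APOB thus depends on the scaling. APOB had a log2 fold change of -0.62 (SE 0.38, adjusted p of 0.537 by edgeR), a fold of 0.651 with a 95% interval from 0.362 to 1.17. It had the smallest unadjusted p of the 7 members, at 0.134. Over the 21 alternative fits the log2 fold change of APOB lay between -0.82 and -0.29.

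MTTP, the microsomal triglyceride transfer protein that lipidates APOB, had 143, 89.5 and 91.5 CPM in the CON libraries. It had 49.9, 117 and 46.6 CPM in the LPS libraries. LPS replicates 1 and 3 lay below all CON libraries, whereas LPS replicate 2 lay among them. The log2 fold change was -0.61 (SE 0.42, adjusted p of 0.590 by edgeR), with a 95% interval of the fold from 0.343 to 1.26. Without LPS replicate 2 it was -1.16 (SE 0.37, adjusted p of 0.0799 by edgeR), in a fit that called 3.76% of 13632 genes higher and 3.45% lower. DESeq2 without the same library called MTTP lower in the LPS group (log2 fold change -1.11, adjusted p = 0.0410). That fit called 5.5% of all genes lower and 5.86% higher. This was the single call of a member among the 21 alternative fits.

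LIPC, the hepatic lipase, had 149, 165 and 94.0 CPM in the CON libraries, against 63.2, 90.8 and 123 CPM in the LPS libraries. On the TMM scale LPS replicate 1 lay well below the lowest CON library and LPS replicate 2 just below it. LPS replicate 3 lay within the CON range. Relative to total counts LPS replicate 2 lay within the CON range and LPS replicate 3 just below it. They had 555 of 5502438 and 1807 of 19967417 counts, against 951 of 10351491 in CON replicate 3. With TMM scaling LIPC had a log2 fold change of -0.55 (SE 0.36, adjusted p of 0.565 by edgeR), with a 95% interval of the fold from 0.388 to 1.2. Over the 21 alternative fits it lay between -0.80 and -0.29.

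**Figure D3:**
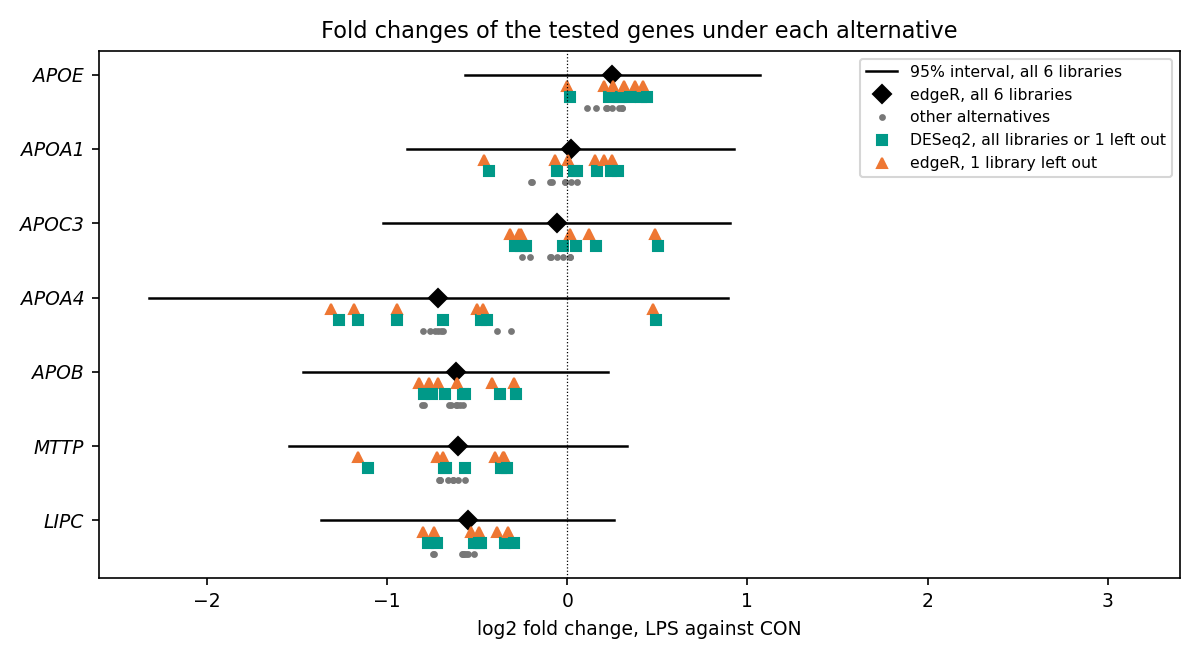
Log2 fold changes of the 7 tested genes, LPS against CON (horizontal axis), with all 6 libraries in edgeR (diamond, 95% interval as a line) and under each alternative (small symbols). All alternatives lie below 0 for APOB, MTTP and LIPC and above 0 for APOE, and they fall on both sides of 0 for APOA1, APOC3 and APOA4.

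Without LPS replicate 2 the log2 fold changes were 0.25 for APOE, 0.21 for APOA1, 0.12 for APOC3, -0.61 for APOB and -0.53 for LIPC, beside the values of APOA4 and MTTP above, and edgeR called 0 of the 7.

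The LPS libraries were not alike across the set. Relative to the CON mean on the log2 scale, LPS replicate 1 was at -1.05, -1.08 and -1.06 for APOB, MTTP and LIPC, and LPS replicate 3 was at -0.20, -1.17 and -0.10 for the same genes. On the TMM scale APOA1, APOB and LIPC were lowest in LPS replicate 1 and highest in LPS replicate 3 within the LPS group. Relative to total counts APOB and LIPC were instead highest in LPS replicate 2, with 9282 and 555 of 5502438 counts. In LPS replicate 3 they had 28741 and 1807 of 19967417 counts. Hepatocyte markers also had the order given on the TMM scale. On that scale their median log2 level against the CON mean was -0.69, -0.44 and 0.13 in the LPS libraries. MTTP did not have this order, being lowest in LPS replicate 3. All 14 hepatocyte markers with a row were detected in every library, with a summed level of 65924 to 92860 CPM in CON liver and 64963 to 127450 CPM in LPS liver. The SERPINA1 row was far below the other markers, at 1.23 to 7.2 CPM, and it is part of the median above. FGB and FGG, at 44960 and 15121 CPM in LPS replicate 3, held much of its sum. All LPS libraries lay above all CON libraries for these 2 markers and below them for 4, ALB, ASGR1, ASGR2 and CYP2E1. These are 14.3% and 28.6% of the list, against 6.52% and 9.8% of all tested genes. Of the 9 tested neutrophil markers 7 were above 0 in log2 fold change, against 6448 of all 12774 tested genes. Of the 9, 1 was called higher by edgeR, against 0.0548% of all tested genes. This was S100A8, with 2 to 4 counts in the CON libraries. All LPS libraries lay above all CON libraries for 4 of the 9 and below them for 0, or 44.4% and 0%, against 6.52% and 9.8% of all tested genes. The summed level of this list was 84.1 to 147 CPM in CON liver and 191 to 402 CPM in LPS liver. The part of either list in the values of the members was not tested.

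Other genes of lipoprotein metabolism were counted from 6 lists written from general knowledge, with 104 genes, of which 88 had a row and 82 were tested. With all libraries edgeR called 0 of the 82. At an unadjusted p below 0.05 it gave 2 higher and 14 lower, or 2.44% and 17.1%, against 6.18% and 6.33% of all tested genes. All LPS libraries lay below all CON libraries for 14 of the 82 genes and above them for 4, or 17.1% and 4.88%, against 9.8% and 6.52% of all tested genes. The median log2 fold change was -0.23.

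**Figure D4:**
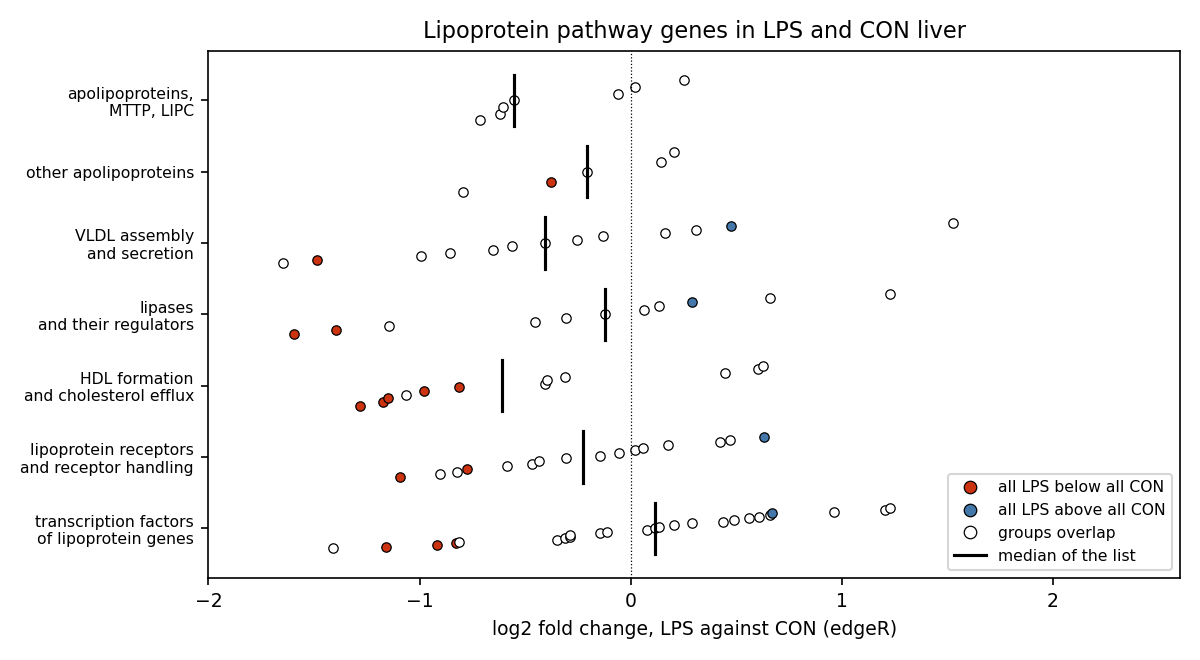
Log2 fold changes (edgeR, LPS against CON) of the 7 tested members and of the 82 tested genes in 6 lists, with each point a gene and each vertical line the median of its list. Filled points are genes whose LPS libraries all lie below or all above the CON libraries. Of the 12 genes of HDL formation and cholesterol efflux 5 lie below, or 41.7%, against 9.8% of all tested genes.

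The list for HDL formation and cholesterol efflux had the lowest median of the 6 lists, at -0.61 over 12 tested genes. At an unadjusted p below 0.05 edgeR gave 5 of them lower and 0 higher, or 41.7% and 0%, against 6.33% and 6.18% of all tested genes. ABCG8, which with ABCG5 exports sterols into bile, had 61.6, 45.6 and 45.6 CPM in the CON libraries, against 19.0, 29.1 and 19.6 CPM in the LPS libraries. Its log2 fold change was -1.18 (SE 0.31, adjusted p of 0.212 by edgeR), and the groups did not overlap. PON1, the antioxidant esterase carried on HDL, had 144 ± 31 CPM in the CON group and 73.3 ± 17.6 CPM in the LPS group (mean ± SD, n = 3), with an edgeR adjusted p of 0.274. NCEH1, a cholesteryl ester hydrolase, had a log2 fold change of -1.28 at 1.53 to 5.63 CPM, with an edgeR adjusted p of 0.280.

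Among lipases and their regulators, 11 tested genes had a median of -0.12. LIPA, the lysosomal acid lipase, had a log2 fold change of -1.15 (adjusted p of 0.314 by edgeR). GPIHBP1, which anchors lipoprotein lipase to endothelium, had -1.60 at 0.614 to 6.35 CPM (adjusted p of 0.316 by edgeR).

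In the list for VLDL assembly and secretion, 13 tested genes had a median of -0.40. AADAC, an esterase of the hepatocyte endoplasmic reticulum, had 105, 87.8 and 62.3 CPM in the CON libraries, against 16.4, 57.4 and 17.4 CPM in the LPS libraries, with a log2 fold change of -1.48 (SE 0.50, adjusted p of 0.274 by edgeR). VMP1, an endoplasmic reticulum protein with a role in lipoprotein release and autophagy, went the other way, with a log2 fold change of 1.53 (adjusted p of 0.359 by edgeR) and 29.4 CPM in LPS replicate 2 against 77.4 and 216 CPM in LPS replicates 1 and 3. SMLR1 had a log2 fold change of -0.99 (adjusted p of 0.423 by edgeR).

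The other apolipoproteins had a median of -0.21 over 5 tested genes. APOA2, the other major protein of HDL, had 858, 673 and 905 CPM in the CON libraries, against 336, 272 and 797 CPM in the LPS libraries, with a log2 fold change of -0.79 (SE 0.43, adjusted p of 0.492 by edgeR). As for APOA1, LPS replicate 3 was the highest LPS library. APOM, an HDL protein that carries sphingosine-1-phosphate, had 79.3 ± 1.9 CPM in the CON group and 61.1 ± 5.6 CPM in the LPS group (mean ± SD, n = 3), and its groups did not overlap (adjusted p of 0.613 by edgeR). APOH had a log2 fold change of -0.21 (adjusted p of 0.840 by edgeR).

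Lipoprotein receptors and the proteins that handle them had a median of -0.23 over 16 tested genes. MYLIP, a ubiquitin ligase that acts on lipoprotein receptors, had 8.04, 8.90 and 5.44 CPM in the CON libraries, against 3.05, 5.07 and 4.78 CPM in the LPS libraries. All LPS libraries lay below all CON libraries, with a log2 fold change of -0.78 (SE 0.39, adjusted p of 0.461 by edgeR).

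Transcription factors of lipoprotein genes had a median of 0.12 over 25 tested genes, with 11 below 0. NR1H4, the bile acid receptor FXR, had 62.5, 47.2 and 32.7 CPM in the CON libraries, against 18.5, 29.3 and 16.0 CPM in the LPS libraries, with a log2 fold change of -1.16 (SE 0.37, adjusted p of 0.256 by edgeR). SREBF2, which drives cholesterol synthesis, had -0.83 (adjusted p of 0.326 by edgeR), and PPARA, the nuclear receptor of fatty acid oxidation, had -0.92 (adjusted p of 0.329 by edgeR). These 3 were named for the smallest unadjusted p of their list, and in all 3 the LPS libraries lay below the CON libraries. They were the only ones of the 25 to do so, or 12%, near the 9.8% of all tested genes. HNF4A, which binds many apolipoprotein promoters and was picked with its values known, had a log2 fold change of 0.61 (adjusted p of 0.637 by edgeR), with 206 to 559 CPM in the CON group and 277 to 730 CPM in the LPS group.

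Without LPS replicate 2, edgeR called 13 of these 82 genes, 9 of them lower and 4 higher in the LPS group, or 11% and 4.88%, against 3.45% lower and 3.76% higher over all genes, with the library left out for its likeness to the CON group. ABCG8, SOAT2, AADAC, CIDEB, CIDEC, LIPA, NR1H4, PPARA and THRB were lower, and VMP1, LIPG, CEBPB and NR5A2 were higher. CIDEB, a lipid droplet protein of VLDL lipidation, had 103, 102 and 123 CPM in the CON libraries, 36.6 and 40.7 CPM in LPS replicates 1 and 3 and 104 CPM in LPS replicate 2.

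For each tested member the gene with the most similar pattern was the one at the smallest root mean square distance of centred log2 CPM over the 6 libraries. MTTP was closest to SERPINA6, which encodes corticosteroid-binding globulin, at a distance of 0.09. APOB was closest to STRN at 0.08, LIPC to APLF at 0.09, APOE to ASB6 at 0.06, APOA1 to ZBTB2 at 0.10 and APOC3 to CNTNAP1 at 0.15. The nearest gene to APOA4 was DAPK2, at a larger distance of 0.36. Among the members themselves, the closest pair was APOB and LIPC at 0.26, followed by APOA1 and APOC3 at 0.36. With 6 libraries and 12774 genes some close patterns always occur, and these distances are a description without a test.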

How the data were processed

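Raw counts of reads per Ensembl pig gene were deposited by the authors in 1 table, without normalization. Per the labels, a directional library kit was used. The submitters' processing notes name cutadapt 1.9.3 and HISAT2 and list genome builds of chicken and human only. No source used here names the counting program, its strand setting or the pig build. For CON replicates 1 and 2 the labels hold 2 entries each, with a single count column per replicate. Of the 31908 identifiers 15029 were paired with a symbol.

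The members and the gene lists were chosen with earlier results of these data known. Low genes were removed with filterByExpr (minimum count 10), and CPM and RPKM values (per 1000 exonic bases) were computed on TMM-scaled library sizes. Groups were compared in R 4.3.3 by edgeR 4.0.16 (glmQLFit with robust settings, glmQLFTest), and p-values were adjusted over all tested genes. The study's methods name no RNA-seq test. Standard errors were derived from the F statistic of each gene (log2 fold change over its root), and 95% intervals from its degrees of freedom. The fit was tested on simulated data. For a single gene, 3 against 3 libraries allow no exact two-sided permutation p under 0.1, so none was run. Alternatives were RLE factors, total counts with and without the 10 top genes of each library, other filters, DESeq2 1.42.0, limma-voom (limma 3.58.1), edgeR's likelihood ratio test, a replicate block, other fold thresholds and leaving out each library. Besides the members, genes were named by a rule, which took the 3 genes of each list with the smallest unadjusted p, the nearest gene to each member, and LCN2. Of the genes so named, 3 are not reported here. The m6A-IP libraries were not analysed here.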

Additional observations from a re-analysis of the deposited data

How the results depend on the processing

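Of the 21 alternative fits, 1 called a member, DESeq2 without LPS replicate 2, which called 1 member lower (MTTP) and 5.5% of all genes lower. APOB, MTTP and LIPC stayed below 0 and APOE above 0 in all 21, while APOA1, APOC3 and APOA4 turned in 10, 8 and 2. The log2 fold change of APOA1 was -0.19 with total counts, -0.20 without the 10 top genes, -0.0098 with no filter on low counts, -0.015 with at least 10 counts in every library and -0.098 in limma-voom, where APOC3 was at 0.013. Both total-count scalings moved the median of all genes, to -0.12 and -0.15. Leaving out 1 library at a time, edgeR gave -0.46 to 0.25 for APOA1, -1.31 to 0.48 for APOA4, -0.32 to 0.49 for APOC3, and -0.53 to 0.15 for the median of the tested members. DESeq2 gave APOA1 at -0.058 without CON replicate 1 and -0.44 without LPS replicate 3. Without CON replicate 3 it gave APOA4 at 0.50, APOC3 at 0.51 and the median at 0.16. APOC3 was at 0.049 without LPS replicate 1 and 0.16 without LPS replicate 2.

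Of the pathway genes, 4 were called with no filter (3.76% of all genes), 1 by DESeq2 (3.16%), and 0 to 13 by edgeR with 1 library left out (0% to 7.2%). DESeq2 called 1 without CON replicate 3 (1.86% of all genes), 17 without LPS replicate 2 (11.4%) and 2 without LPS replicate 3 (2.45%). The cause of these shifts was not tested. Same-numbered libraries correlated at -0.24, 0.22 and 0.03 in their deviations from the group means, and differently numbered ones at -0.25 to 0.22. Deviations from a group mean are tied to one another, so these values cannot decide whether the numbers pair the libraries. With a replicate block 42 genes were called higher and 9 lower over all genes, 0 members and 0 pathway genes were called, APOA1 was at -0.086 and APOC3 at 0.018.

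With 3 libraries per group and this spread, the intervals of all 7 members include folds below and above 1, while counting error is at most 6.61%. APOA5, PLTP and LCAT have no level of their own here.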

Other observations

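Rows that share every exonic base with another row were nearly all at 0, whichever strand the other row was on. Besides the 153 such rows on the same strand, 198 rows shared every exonic base with rows on the opposite strand and none with rows on the same strand, and 196 of them were at 0 in every library. The other 2 held at most 230 counts in all 6 libraries together. The same-strand rows include, besides LCAT, LYZ, which encodes lysozyme, MCL1, which encodes an anti-apoptotic protein of many cell types, and INHBE, which encodes the hepatokine inhibin beta E. These 3 genes were singled out from the list of such rows, and their 0 counts cannot be read as absence of their mRNA in piglet liver.

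Within a library, the log2 ratio of MTTP to APOB per length was -3.13, -3.09 and -2.85 in the CON libraries, against -3.05, -2.31 and -4.00 in the LPS libraries, each in the order of replicates. The CON libraries were close together, and LPS replicates 2 and 3 lay on opposite sides of them. The log2 ratio of APOE to APOA1 per length was between -1.38 and -0.63 in the CON group, close to 0 in LPS replicates 1 and 2 (-0.0028 and -0.21) and -1.44 in LPS replicate 3. The position of this ratio relative to 0 depends on the exon lengths of the rows, while its differences between libraries do not. Both ratios were chosen with the values of these genes known and were not tested.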
